A study of Rattus norvegicus with 12 samples.

Results

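Fatty acid oxidation inside mitochondria, and the ketone body synthesis that it feeds, was followed through 33 liver genes chosen by symbol for their place in the pathway. All 33 were among the 16478 gene rows of the count files, and all passed the filter on low counts, with at least 34 reads in each library. The libraries came from livers of untreated obese ZSF1 rats aged 16 weeks, 6 females (animals 7, 8, 9, 10, 12 and 13) and 6 males (animals 1 to 6), with 1 library per animal. The ZSF1 strain derives from a cross of leptin receptor mutant lines, and both sexes here carried the obese phenotype, so these data hold no lean animals. Rats had free access to chow and the labels record neither a fast nor a time of death. The study asked how liver transcript levels differ between the sexes in this obese strain.

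A fatty acid is first joined to coenzyme A by an acyl-CoA synthetase. Carnitine then carries the acyl chain across the mitochondrial membranes, in a relay that starts with the outer-membrane enzyme Cpt1a, which malonyl-CoA inhibits. In the matrix a chain-length-graded set of acyl-CoA dehydrogenases, hydratases and thiolases shortens the chain, and electron transfer flavoprotein passes the electrons to the respiratory chain. In liver much of the acetyl-CoA produced becomes ketone bodies, and the fatty acid sensor PPAR-alpha is the best known transcription factor acting on these genes.

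Female libraries held 6763879 to 24837602 reads over genes and male libraries 11381428 to 29232871, so that 3 reads correspond to between 0.103 and 0.444 CPM (counts of a gene per 1000000 reads over genes). Levels are given as CPM scaled by TMM factors, which adjust each library for its composition, and are not divided by gene length, so they compare animals and not genes. Each sex is given as its lowest animal, its median and its highest. Fold changes run females over males with their standard error (SE), and adjusted p is the Benjamini-Hochberg value of edgeR's quasi-likelihood test over all 9943 genes tested. A gene is called where that value was under 0.05. In bulk liver RNA, fewer cells of a type and less RNA per cell cannot be told apart. Male 4 lay far from the other libraries on principal component 2, which held 11.4% of the variance, and female 12 on component 3 (5.84%). For many of the genes in which they stand out, though not all, values without one or both of them are given. These animals were chosen with earlier results of these data known. Where they lie at the inner edge of their sex, leaving them out widens the difference and lowers the adjusted p by construction. Such values describe how far a result rests on them and are no further evidence for it. Hepatocyte markers were abundant in every library, at a summed 237875 to 316390 CPM in females and 203731 to 261311 in males over 9 markers found. Most of that sum was Alb (mean 205679 CPM in females and 161851 CPM in males). Ttr (7981 and 11027 CPM) and Serpina1 (8476 and 13444 CPM) had higher means in males. Of the 9 hepatocyte markers, 2 were called higher in females and 3 higher in males. Muscle markers summed to at most 1.11 CPM in any animal, with Mb at 0 throughout, and the adipocyte marker Lep was at 0 throughout. Markers of sinusoidal endothelium, 4 of 8 found, summed to 76.1 to 94.5 CPM in females and 28.1 to 75.96 CPM in males, with 3 called higher in females. Adipocyte markers, 6 of 7 found, summed to 95.6 to 102 CPM in females and 109 to 129 CPM in males. Nearly all of that sum was Cidec (mean 91.9 CPM in females and 114 CPM in males), while Cfd averaged 6.18 CPM in females and 3.20 CPM in males, and 1 marker was called in each direction. Erythroid markers, 4 of 4 found, summed to 300 to 712 CPM in females and 516 to 1261 CPM in males. Their part in the results was not tested.

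Most of these genes were lower in females. Of the 33 genes, 22 were called lower in females and 3 higher in females, while 8 were not called. Across all genes tested, 43.2% were called, 22.7% higher in males and 20.5% higher in females. The median log2 fold change of the 33 was -0.31, where that of all genes was -0.013. The differences were modest. Vnn1, Crat, Dci, Cpt1a and Pdk4 differed by 1.73-fold or more, and the other called genes by at most 1.55-fold. For 7 of the 33 genes (21.2%) the ranges of females and males did not overlap, close to the 22.8% of all genes.

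**Figure D1:**
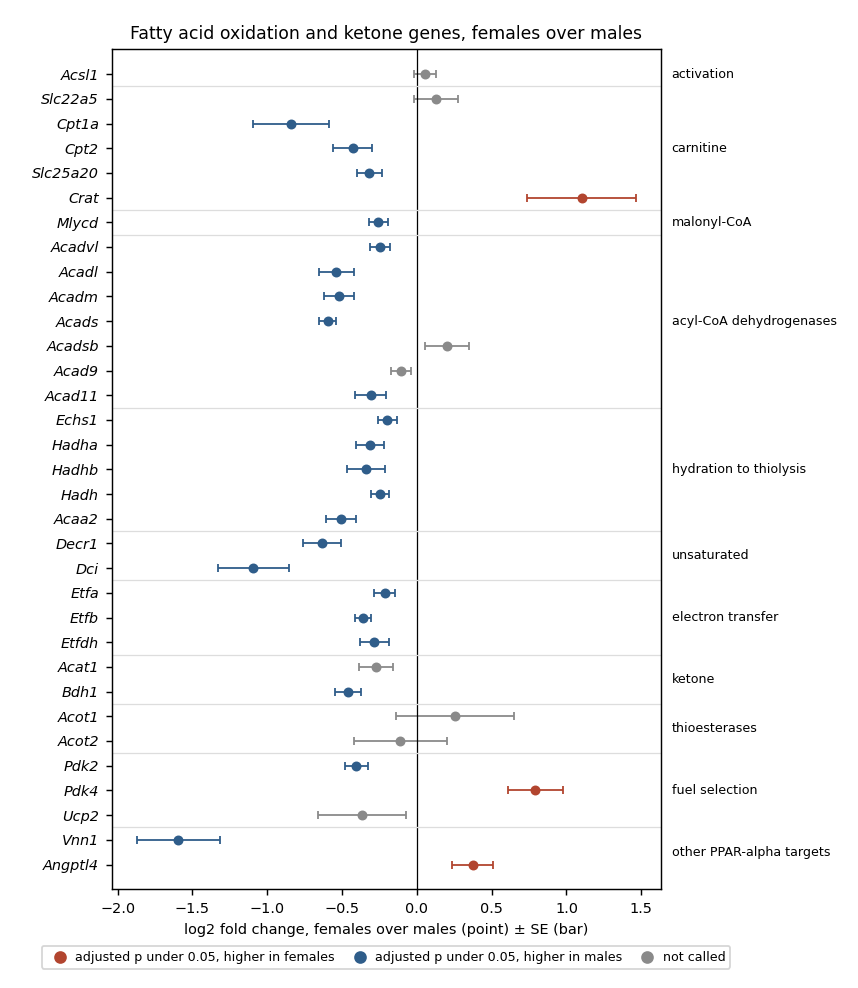
Log2 fold change of each of the 33 genes, females over males (points, with SE bars), ordered by step from activation at the top to PPAR-alpha targets outside the matrix at the bottom. Blue points (22 genes) were called lower in females, red points (Crat, Pdk4 and Angptl4) higher in females, and grey points (8 genes) were not called.

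Among the 33 genes, Hadha and Hadhb have a stretch of upstream sequence in common, whose part in their levels was not tested. They encode the alpha and beta subunits of the mitochondrial trifunctional protein, which carries out the last 3 reactions of each round on long chains, and they lie next to each other in opposite orientation. In the RefSeq promoter table of build GRCr8 their starts are 300 bases apart, and the 200 bases that belong to the upstream window of both genes are shown because both transcripts were called in the same direction. The stretch is chr6:31907551-31907750, read on the plus strand toward Hadha, and capitals mark a match to the letters TTCNNNGAA, which STAT factors are known to bind.
Hadha and Hadhb: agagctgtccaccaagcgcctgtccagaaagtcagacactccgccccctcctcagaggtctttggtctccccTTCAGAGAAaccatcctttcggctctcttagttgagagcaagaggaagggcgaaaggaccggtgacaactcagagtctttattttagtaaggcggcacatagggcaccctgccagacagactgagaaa
The other promoter with such a match belonged to Crat, which was called in the opposite direction, and is shown from chr3:34087200-34087349, read on the minus strand toward the gene, with the match in capitals.
Crat: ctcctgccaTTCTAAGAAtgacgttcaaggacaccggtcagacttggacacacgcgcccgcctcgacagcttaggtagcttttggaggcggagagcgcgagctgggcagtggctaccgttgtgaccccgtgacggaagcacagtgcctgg

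Promoter windows of 300 bases, 250 before the start and 50 after it, matched 29 of the 33 genes. The letters TTCNNNGAA were searched on both strands and stood in 3 of the 29, those of Hadha, Hadhb and Crat, with the first pair sharing a single site. They stood in 8.87% of all 33469 promoters of the table. AGGNCANAGGNCA, the direct repeat that PPAR-alpha is known to bind, was found in 0 of the 29 and in 0.415% of all promoters, and TCAAGGTCA, the element of estrogen-related receptors, in 0 of the 29 and in 0.433% of all. These last elements are so rare among all promoters that 0 of 29 is the usual outcome and says nothing particular about these genes. A match describes letters only, and sites outside these windows were not searched.

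At the activation step Acsl1 was not called, while related synthetases were higher in females. Acsl1, the main long-chain acyl-CoA synthetase of liver, stood at 2849, 2956 and 3204 CPM in females (lowest, median and highest) and at 2481, 2869 and 3127 CPM in males, and the sexes overlapped widely. Its log2 fold change was 0.05 (SE 0.0732, adjusted p = 0.59, edgeR). Acsl3, Acsl4 and Acsl5, its relatives, were called higher in females without overlap. Acsl3 averaged 39.0 ± 3.05 CPM in females and 14.0 ± 1.52 CPM in males (SD, n = 6 each), a 2.81-fold difference. Acsl5, found on the endoplasmic reticulum and mitochondria, averaged 1014 ± 137 CPM in females and 414 ± 57.6 CPM in males (2.45-fold). Acsl4, which prefers arachidonic acid, averaged 535 ± 58.9 CPM in females and 264 ± 33.2 CPM in males (2.03-fold). These 3 belong to the wider list of oxidation genes and carried adjusted p-values of 4.26e-09, 4.34e-07 and 1.25e-06 in that order.

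The carnitine relay was lower in females at each transfer into the matrix. Cpt1a, which sets the rate of entry, had 87.7, 121 and 281 CPM in females and 198, 251 and 318 CPM in males. Female 12 held the 281 CPM, inside the male range, while the other 5 females lay between 87.7 and 143 CPM, below every male. Cpt1a was 1.79-fold lower in females (log2 -0.84, SE 0.255, adjusted p = 0.0181, edgeR), and 2.22-fold lower without female 12 (log2 -1.15, adjusted p = 5.59e-05).

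Cpt2, which returns the chain to coenzyme A inside the matrix, had 135, 155 and 219 CPM in females and 148, 231 and 238 CPM in males (log2 -0.43, SE 0.128, adjusted p = 0.0142). Male 4 lay below 5 of the 6 females, and the other 5 males lay above every female. Without male 4 and female 12 the log2 fold change was -0.61 (SE 0.0559, adjusted p = 4.89e-07). The carrier Slc25a20, which swaps acylcarnitine for carnitine across the inner membrane, had 129, 137 and 167 CPM in females and 156, 170 and 207 CPM in males (log2 -0.32, SE 0.0816, adjusted p = 0.00588). Only female 12 among the females reached the male range of this carrier, and without both animals its log2 fold change was -0.38 (adjusted p = 0.000488). Slc22a5, the plasma membrane carnitine transporter, was not called, with 27.8, 28.6 and 53.9 CPM in females and 28.6, 29.6 and 33.4 CPM in males. Female 12 held its highest value, and the log2 fold change of 0.13 (SE 0.147) turned to -0.059 without that animal.

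Crat went the other way from its neighbours. It encodes carnitine acetyltransferase, which buffers short acyl groups rather than importing long ones. Females had 25.3, 61.6 and 127 CPM, against 19.4, 30.5 and 40.6 CPM in males, so that the females spread over a wide range that overlapped the males through animals 7 and 10. The 2.14-fold difference (log2 1.10, SE 0.362, adjusted p = 0.0284) was not called without female 8, female 12, female 13, male 4 or male 6 in turn, nor with no filter on low counts. Without female 12 the log2 fold change was 0.79 (adjusted p = 0.0601), without female 12 and male 4 it was 0.73 (adjusted p = 0.116), and over all 22 alternatives the adjusted p ran from 0.00896 to 0.116.

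Genes that set malonyl-CoA, the inhibitor of Cpt1a, lay on both sides. Mlycd, which removes malonyl-CoA, had 77.1, 80.7 and 101 CPM in females and 96.3, 98.6 and 104 CPM in males (log2 -0.26, SE 0.0646, adjusted p = 0.00492), and female 12 alone among females reached the male range. Without female 12 and male 4 the Mlycd value was -0.30 (adjusted p = 0.000125). Acacb, the acetyl-CoA carboxylase that makes malonyl-CoA at the mitochondrial surface, had 63.3, 126 and 147 CPM in females and 16.8, 32.9 and 38.2 CPM in males, with no overlap. Here female 12 was the lowest female. Acacb was 3.83-fold higher in females (adjusted p = 5.31e-05), and Acaca, the cytosolic enzyme of lipid synthesis, 1.66-fold with overlap (272 to 420 CPM in females, 134 to 291 in males, adjusted p = 0.00551).

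**Figure D2:**
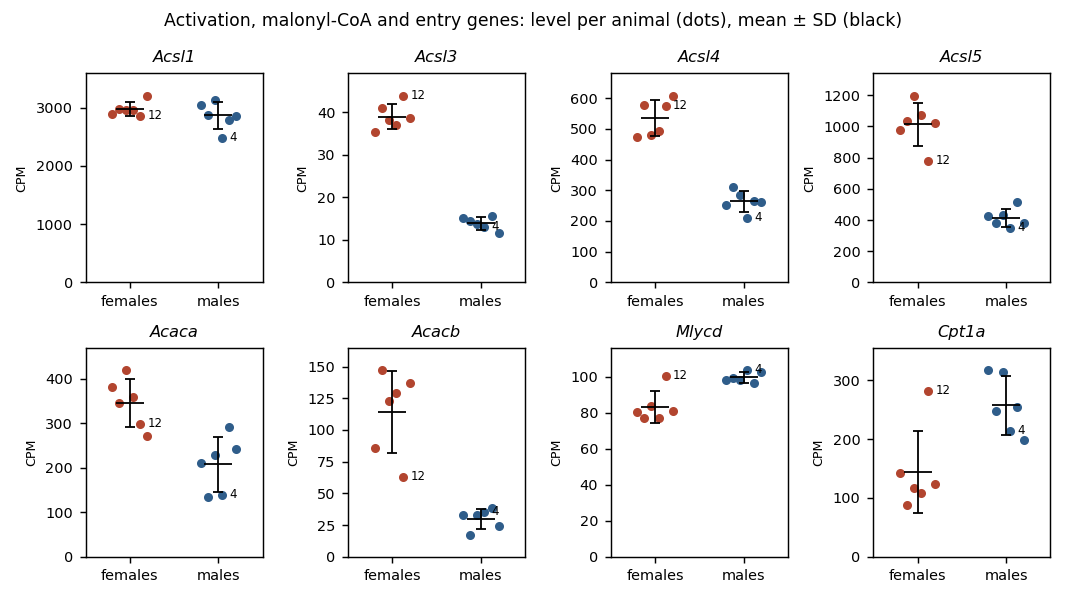
TMM-scaled CPM per animal for the synthetases Acsl1, Acsl3, Acsl4 and Acsl5, the carboxylases Acaca and Acacb, Mlycd and Cpt1a, with females on the left and males on the right of each panel, mean ± SD in black, and female 12 and male 4 numbered. Acsl1 overlaps between the sexes, Acsl3, Acsl4, Acsl5 and Acacb are higher in females without overlap, and Mlycd and Cpt1a are lower in females.

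The acyl-CoA dehydrogenases, which open each round of oxidation, gave 5 of 7 called lower in females and none higher. Across all genes tested, 22.7% were called lower in females and 20.5% higher. Acads, the short-chain enzyme, separated the sexes, with 137, 147 and 152 CPM in females and 205, 221 and 238 CPM in males. It was 1.51-fold lower in females (log2 -0.60, SE 0.0542, adjusted p = 9.17e-07), and neither female 12 (144 CPM) nor male 4 (213 CPM) stood out. Acadm, the medium-chain enzyme, had 496, 556 and 679 CPM in females and 600, 854 and 871 CPM in males (log2 -0.52, SE 0.101, adjusted p = 0.000846). Male 4 held the 600 CPM, and the other 5 males lay within 849 to 871 CPM, above every female. Without male 4 and female 12 the Acadm log2 fold change was -0.64 (adjusted p = 7.94e-07).

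Acadl, the long-chain enzyme, had 383, 452 and 570 CPM in females and 470, 692 and 789 CPM in males (log2 -0.54, SE 0.118, adjusted p = 0.00211). Acadvl, the very-long-chain enzyme of the inner membrane, had 298, 307 and 364 CPM in females and 338, 373 and 405 CPM in males (log2 -0.25, SE 0.0671, adjusted p = 0.00791). Male 4 was the lowest male for both. Female 12 exceeded it for both, and for Acadl female 7 was level with it at 470 CPM. Leaving out both animals gave log2 fold changes of -0.68 for Acadl (adjusted p = 3.63e-06) and -0.31 for Acadvl (adjusted p = 0.00026). Acad11, which takes longer chains and lies in peroxisomes as well, had 242, 256 and 328 CPM in females and 238, 335 and 372 CPM in males (log2 -0.31, SE 0.105, adjusted p = 0.0267). Male 4 lay below every female here, and without male 4 and female 12 the log2 fold change was -0.44. The gene was no longer called when female 7, 8, 9, 10 or 13, or male 1, 3 or 5, was left out (adjusted p from 1.85e-05 to 0.0617 over all alternatives).

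Acadsb and Acad9 were the dehydrogenases that were not called. Acadsb, of isoleucine breakdown, had 56.1, 69.4 and 74.9 CPM in females and 35.7, 60.4 and 72.1 CPM in males (log2 0.20, SE 0.148, adjusted p = 0.292). Acad9, also an assembly factor of respiratory complex I, had 65.3, 70.2 and 77.9 CPM in females and 65.7, 76.2 and 87.0 CPM in males (log2 -0.11, SE 0.066, adjusted p = 0.208).

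All 5 genes chosen for the next 3 reactions were called lower in females, where 22.7% of all genes tested were. Hadha had 394, 439 and 572 CPM in females and 471, 571 and 626 CPM in males (log2 -0.31, SE 0.0927, adjusted p = 0.0134). Hadhb, across the shared upstream stretch, had 297, 333 and 481 CPM in females and 343, 456 and 544 CPM in males (log2 -0.34, SE 0.127, adjusted p = 0.0436). Within females both were lowest in female 8 and highest in female 12, and within males both were lowest in male 4 and highest in male 1. That ranking was not particular to the pair. Among the 22 genes called lower in females, female 12 was the highest female for 15 and female 8 the lowest for 14. Male 4 was the lowest male for 15 of them and male 1 the highest for 14. Leaving out female 12 and male 4 gave log2 fold changes of -0.42 for Hadha (adjusted p = 4.56e-05) and -0.50 for Hadhb (adjusted p = 0.000173). The Hadhb call was lost in 13 of 22 alternatives (adjusted p from 0.000173 to 0.101), among them upper quartile factors, relative log expression factors and library totals. Leaving out female 7, 8, 9, 10 or 13, or male 1, 2, 3 or 5, also ended it.

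Echs1 and Hadh, of the short-chain steps, separated the sexes. Echs1, the short-chain hydratase, had 394, 459 and 473 CPM in females and 488, 504 and 567 CPM in males, without overlap. The difference was small (log2 -0.20, SE 0.0663, adjusted p = 0.0262). It was not called with upper quartile factors, with library totals, or without female 8, male 5 or male 6 (adjusted p from 0.00734 to 0.0683 over all alternatives). Female 12 was the lowest female, and without that animal the Echs1 log2 fold change was smaller, at -0.16 (adjusted p = 0.0457). Hadh, the short-chain hydroxyacyl-CoA dehydrogenase, had 544, 593 and 630 CPM in females and 645, 711 and 728 CPM in males, again without overlap (log2 -0.25, SE 0.0614, adjusted p = 0.00463). Acaa2, the mitochondrial thiolase, had 502, 535 and 692 CPM in females and 613, 822 and 893 CPM in males (log2 -0.50, SE 0.100, adjusted p = 0.00101), and only female 12 overlapped the males, at male 4. Without these animals the Acaa2 log2 fold change was -0.63 (adjusted p = 1.39e-06).

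Unsaturated chains need extra enzymes, and both genes chosen for them were called lower in females, where 22.7% of all genes tested were. Dci, now named Eci1, moves a double bond into the position the spiral can handle. It had 135, 153 and 340 CPM in females and 254, 410 and 480 CPM in males, 2.13-fold lower in females (log2 -1.09, SE 0.239, adjusted p = 0.00288). Female 12 at 340 CPM lay among the males, while the other 5 females reached at most 178 CPM, below male 4 at 254 CPM. Without both animals the difference was 2.73-fold (adjusted p = 2.5e-07). Decr1, the dienoyl-CoA reductase, had 169, 192 and 271 CPM in females and 221, 318 and 367 CPM in males (log2 -0.63, SE 0.128, adjusted p = 0.0012), and female 12 alone among females exceeded male 4. Without them the Decr1 log2 fold change was -0.81 (SE 0.0691, adjusted p = 2.36e-07).

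**Figure D3:**
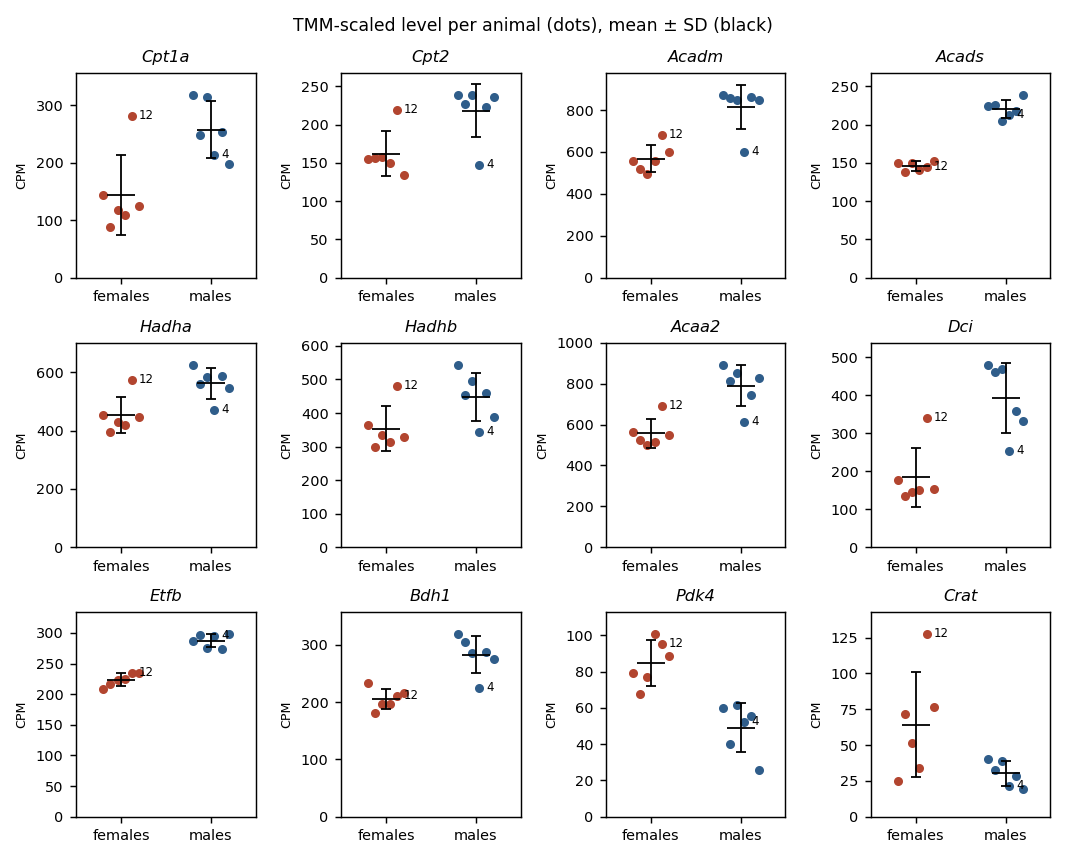
TMM-scaled CPM per animal for 12 genes along the pathway, females left and males right in each panel, mean ± SD in black, and female 12 and male 4 numbered. In Cpt1a, Cpt2, Acadm, Hadha, Hadhb, Acaa2 and Dci, female 12 lies within the range of the 6 males. Acads and Etfb separate the sexes, and Pdk4 is higher in females without overlap.

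Electron transfer out of the dehydrogenases was lower in females at all 3 genes, where 22.7% of all genes tested were called lower in females. Etfb, the beta subunit of electron transfer flavoprotein, had 208, 224 and 235 CPM in females and 274, 291 and 298 CPM in males, without overlap (log2 -0.36, SE 0.0535, adjusted p = 9.43e-05). Etfa, the alpha subunit, overlapped through male 4, with 291, 309 and 330 CPM in females and 296, 361 and 400 CPM in males (log2 -0.22, SE 0.0722, adjusted p = 0.0254). Etfdh, which hands the electrons to ubiquinone, had 337, 381 and 451 CPM in females and 361, 492 and 521 CPM in males (log2 -0.28, SE 0.0955, adjusted p = 0.0259).

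Male 4 was the lowest male for Etfa and Etfdh, and had 294 CPM of Etfb, above 3 other males. For Etfa and Etfdh the other 5 males lay above every female, and without male 4 and female 12 the log2 fold changes were -0.26 for Etfa and -0.39 for Etfdh. Etfa was no longer called with library totals, or when female 8, 10 or 13 or male 1 or 5 was left out (adjusted p from 0.00237 to 0.0859 over all alternatives). Etfdh was no longer called when female 8, 9 or 10 or male 1, 2 or 3 was left out (0.000259 to 0.0636). The Etfb call held in all 22 alternatives.

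Of the 2 genes chosen for ketone bodies, 1 was called lower in females, where 22.7% of all genes tested were. Bdh1, which reduces acetoacetate to hydroxybutyrate, had 181, 204 and 233 CPM in females and 225, 287 and 318 CPM in males (log2 -0.46, SE 0.0846, adjusted p = 0.000557), and the sexes met only at female 7 and male 4. Without male 4 and female 12 the Bdh1 log2 fold change was -0.52 (adjusted p = 3.13e-05). Acat1, the thiolase that joins acetyl-CoA units, was not called, with 231, 277 and 326 CPM in females and 230, 352 and 372 CPM in males (log2 -0.27, SE 0.111, adjusted p = 0.0594). Male 4 was its lowest male, the other 5 males lay between 349 and 372 CPM, and the gene was called without male 4 (log2 -0.35, adjusted p = 0.00168) or without female 12 (adjusted p = 0.0302).

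Thioesterases, which free fatty acids from coenzyme A, showed no called difference between the sexes but a wide spread among animals. Acot2, the mitochondrial form, had 31.8, 36.0 and 94.8 CPM in females and 26.7, 49.9 and 70.1 CPM in males (log2 -0.11, SE 0.309, adjusted p = 0.803). Acot1, the cytosolic form, had 6.32, 7.19 and 26.9 CPM in females and 5.36, 8.51 and 13.5 CPM in males (log2 0.25, SE 0.395, adjusted p = 0.64). Female 12 held the highest value of all 12 animals for both genes, and Acot1 turned to a log2 fold change of -0.29 without that animal. Acot1 and Acot2 are closely related neighbours, and how reads were divided between them is uncertain.

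Fuel selection genes went in different directions. The pyruvate dehydrogenase kinases Pdk2 and Pdk4 both restrain the use of glucose carbon, and Pdk4 is the one known for its induction in fasting. Pdk4 was higher in females, with 67.4, 83.9 and 101 CPM in females and 26.0, 53.9 and 61.4 CPM in males, without overlap (1.73-fold, log2 0.79, SE 0.185, adjusted p = 0.0041). Pdk2 was lower in females, with 180, 198 and 231 CPM in females and 239, 259 and 310 CPM in males, also without overlap (log2 -0.40, SE 0.0744, adjusted p = 0.000579). Both calls held in all 22 alternatives. For Pdk2, female 12 was the lowest female and male 4 the highest male. Without both animals the Pdk2 log2 fold change was smaller, at -0.31 (adjusted p = 0.000664).

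Ucp2, an inner-membrane carrier known from macrophages as well as from fatty liver, was low, at 4.71, 6.18 and 7.26 CPM in females and 5.10, 6.03 and 17.9 CPM in males (log2 -0.37, SE 0.295, adjusted p = 0.342). Male 4 held the 17.9 CPM, and without it the log2 fold change was 0.083. The macrophage markers, 9 of 10 found, summed to 411 CPM in male 4, to 95.5 to 170 CPM in the other 5 males and to 157 to 238 CPM in females, with Lyz2 at 0 throughout, and their part in the Ucp2 value was not tested.

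Both PPAR-alpha targets outside the matrix were called, in opposite directions, where 43.2% of all genes tested were called. Vnn1, a pantetheinase that releases a building block of coenzyme A, had 9.16, 14.1 and 31.7 CPM in females and 33.1, 53.8 and 67.9 CPM in males. The sexes did not overlap, although female 12 at 31.7 CPM came close to male 4 at 33.1 CPM. It was 3.02-fold lower in females (log2 -1.59, SE 0.28, adjusted p = 0.000733), the largest fold difference among the 33 genes, and 3.93-fold lower without female 12 and male 4 (adjusted p = 2.73e-05). Angptl4, a secreted inhibitor of lipoprotein lipase, was higher in females, with 190, 231 and 335 CPM in females and 168, 192 and 243 CPM in males (log2 0.37, SE 0.135, adjusted p = 0.0371). Females 12 and 13 held its 2 highest values, and the call was lost without either of them, or when male 1, 2, 5 or 6 was left out (adjusted p from 0.0136 to 0.0861 over all alternatives).

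**Figure D4:**
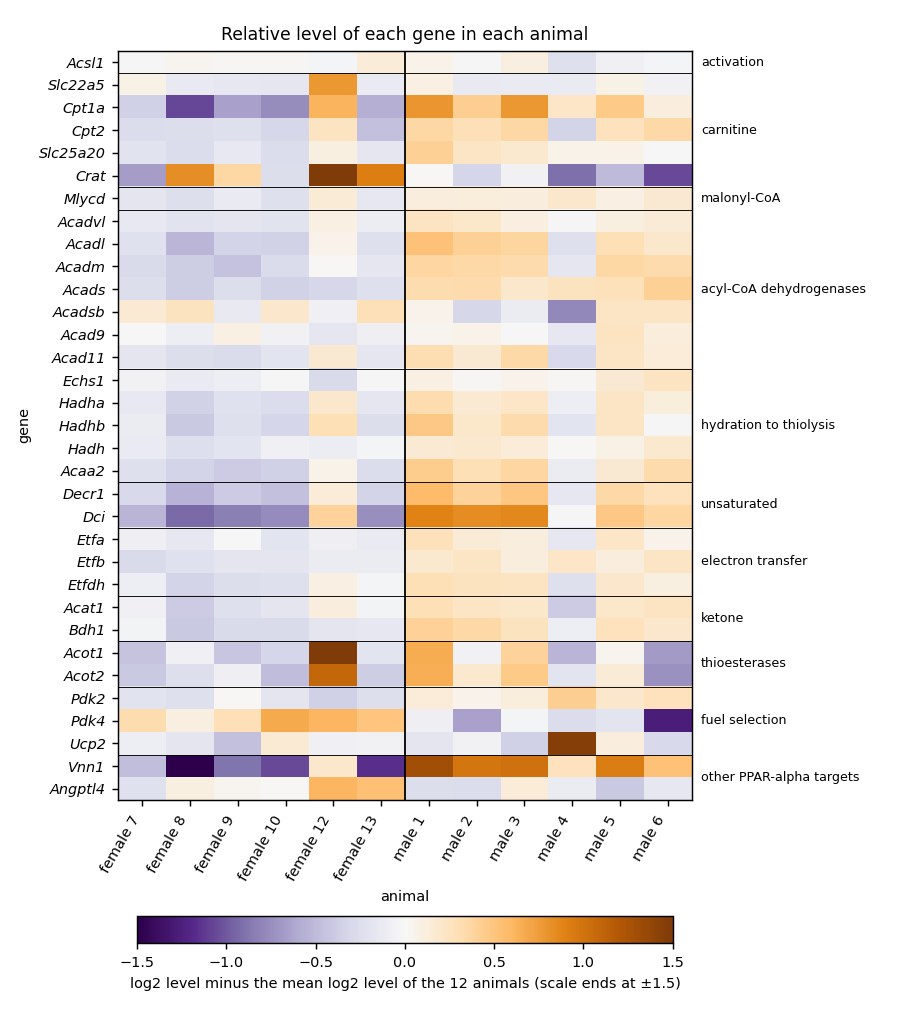
Log2 level of each gene in each animal minus the mean log2 level of the 12 animals, females in the left columns and males in the right, genes ordered by step (orange above the mean, purple below). Most rows are purple in females and orange in males, female 12 is orange in many of these rows, and male 4 is purple or pale in many.

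Individual animals ranked alike across the pathway. Female 12 was the highest female for 21 of the 33 genes (63.6%), where it was the highest female for 24.3% of all genes tested. Female 8 was the lowest female for 16 of the 33 (48.5%), against 12.4% of all genes. Among males, male 1 was the highest for 19 of the 33 (57.6%), against 14.5% of all genes, and male 4 was the lowest for 19 (57.6%), against 30.3% of all genes. Genes of 1 pathway in 1 animal share a library, so these counts describe animals and carry no test.

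**Figure D5:**
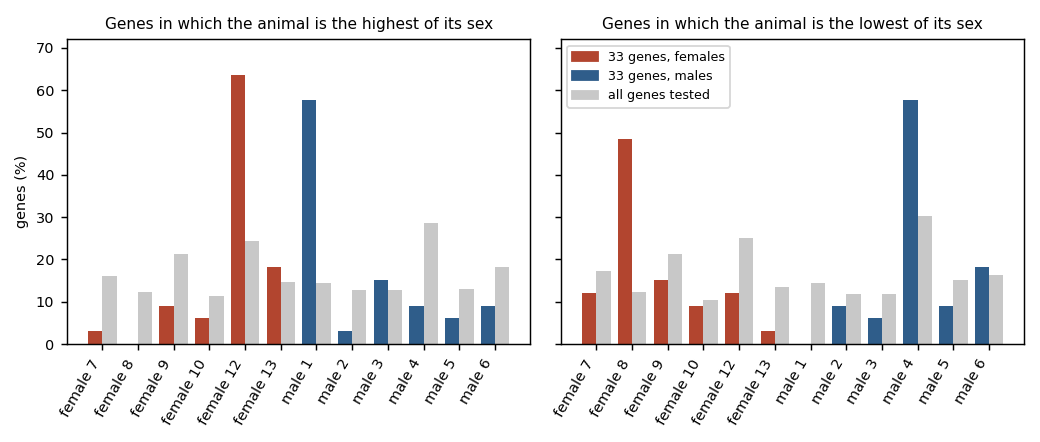
Percentage of genes for which each animal was the highest (left panel) or the lowest (right panel) of its sex, among the 33 oxidation and ketone genes (coloured bars) and among all genes tested (grey bars). Female 12 and male 1 stand out as highest, at 63.6% and 57.6%, and male 4 and female 8 as lowest, at 57.6% and 48.5%.

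Female 12 was above the mean of the other females for 27 of the 33 genes, Crat, Angptl4 and Pdk4 among them, and male 4 was below the mean of the other males for 27. Of all 9943 genes tested, female 12 was above that mean for 4802 and male 4 below it for 5162. Female 12 had a median ratio of 1.24 to the mean of the other 5 females over the 33 genes, and 0.993 over all genes. Male 4 had a median ratio of 0.799 to the mean of the other 5 males over the 33 genes, and 0.987 over all genes. Female 12 lay within the range of the other 5 males for 10 of the 33 genes, where it did so for 3356 of all 9943, and male 4 within the range of the other 5 females for 9 of the 33 and 2658 of the 9943, so neither count is far from that of all genes. Male 4 also had the lowest hepatocyte marker sum (mostly Alb) of the males, at 203731 CPM beside 243642 to 261311 in the other 5. Its sums for 4 other cell types were the highest of the males, at 411 CPM for macrophages (other males 95.5 to 170), 238 for stellate cells (127 to 171), 13.6 for bile duct (5.74 to 8.36) and 8.89 for lymphocytes (1.57 to 3.23). The part of these in its levels of oxidation genes was not tested. In female 12 the sums were 303980 CPM for hepatocytes and 238 CPM for macrophages, the highest macrophage sum among the females. With female 12 and male 4 set aside, 24 of the 33 genes (72.7%) did not overlap between the remaining 5 females and 5 males, where 30.5% of all genes did not. Setting aside the animals at the inner edge of each sex widens the gap by its own construction. In that fit 23 genes were called lower in females and 1, Pdk4, higher, against 22.5% and 24.2% of all genes tested.

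Further genes of the pathway were called in both directions. Of 27 tested genes on the wider list of oxidation and ketone genes, 11 were called lower in females and 5 higher, with a median log2 fold change of -0.19, where 22.7% of all genes were called higher in males and 20.5% higher in females. No overlap was seen for 14 (51.9%), beside 22.8% of all genes and 21.2% of the 33 genes, a difference that was not tested. Acsm3, a medium-chain acyl-CoA synthetase, was 18.4-fold lower in females, at 3.34 to 5.63 CPM in females and 43.9 to 107 CPM in males (adjusted p = 8.59e-08). Its relative Acsm2 was 3.03-fold higher in females (18.8 ± 4.71 CPM in females and 6.14 ± 1.82 CPM in males, SD, n = 6 each). Hsd17b10, a matrix dehydrogenase of isoleucine and short-chain breakdown, was 2.06-fold lower in females, at 155 to 187 CPM in females and 308 to 390 CPM in males. Acot13 was 1.66-fold, Acad10 1.55-fold and Pcca, a propionyl-CoA carboxylase subunit, 1.52-fold lower in females, while its partner Pccb was not called (log2 -0.0085, SE 0.063, adjusted p = 0.93). Cpt1b, the muscle form of the entry enzyme, was low at 2.27 to 4.73 CPM in females and 1.32 to 2.90 CPM in males, and its call (1.53-fold higher in females, adjusted p = 0.0319) was lost without female 8, 9 or 10 or male 3.

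Of 23 regulators, 6 were called higher in females and 5 lower, with a median log2 fold change of 0.013. These shares lie near those of all genes (20.5% higher in females, 22.7% higher in males). Ppara itself, named after its values were seen, had 12.7, 16.1 and 33.7 CPM in females and 13.4, 23.9 and 33.4 CPM in males and was not called (log2 -0.34, SE 0.255, adjusted p = 0.315). Female 12 held the highest of the 12 Ppara values and male 4 the lowest male one, and without female 12 the gene was called lower in females (log2 -0.59, adjusted p = 0.0271). Ppard, another fatty acid receptor, was 3.20-fold higher in females (14.8 to 44.1 CPM in females, 7.63 to 14.0 in males, adjusted p = 0.000243). Called higher in females were also Rxra, the partner of the PPARs, at 1.29-fold (not called without female 12 and male 4 together, adjusted p = 0.054), and Prkab1, an AMP kinase subunit, at 1.36-fold. Lower in females were Lpin2 at 1.97-fold, the mitochondrial deacetylase Sirt3 at 1.44-fold, the estrogen-related receptor Esrra at 1.34-fold, Creb3l3 at 1.19-fold and the kinase Stk11 at 1.13-fold. The Creb3l3 call was lost with upper quartile factors, and when female 7, 8, 9, 10 or 13 or male 1, 2, 3 or 6 was left out. That of Stk11 was lost with upper quartile factors, and when female 7, 8 or 9 or male 2, 4 or 6 was left out. Lpin1, the most abundant regulator not called, had a log2 fold change of 0.30 (SE 0.12, adjusted p = 0.0569), and was called in 8 alternatives.

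A further list held 23 general mitochondrial genes. Of these structural, import and genome maintenance genes, 10 were called lower in females and 1 higher, where 22.7% of all genes were called higher in males and 20.5% higher in females, with a median log2 fold change of -0.14 beside -0.31 for the 33 genes, a difference between lists that was not tested. Cycs, or cytochrome c, was 1.47-fold, the import channel Timm23 1.30-fold, Phb 1.29-fold, the mitochondrial RNA polymerase Polrmt 1.27-fold and the phosphate carrier Slc25a3 1.25-fold lower in females, none with overlap. Cs, citrate synthase, was 1.14-fold higher in females (adjusted p = 0.0389), a call lost with library totals, with no filter, and without female 7, 8 or 9 or male 2, 3, 4 or 6. The chaperone Hspa9 was not called (log2 0.21, SE 0.101, adjusted p = 0.106), and was called higher in females when male 5 was left out (adjusted p = 0.0362).

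The wider list of PPAR-alpha targets outside mitochondria held 17 tested genes. Of these, 6 were lower in females and 2 higher, with a median log2 fold change of -0.10, beside the same shares of all genes (22.7% and 20.5%). The fatty acid hydroxylase Cyp4a3 was 3.46-fold lower in females, at 13.1 to 20.4 CPM in females and 43.4 to 69.1 CPM in males. The droplet protein Plin5 was 1.58-fold, the lipase Pnpla2 1.51-fold, Retsat 1.41-fold and the very-long-chain acyl-CoA synthetase Slc27a2 1.25-fold lower in females. Without male 4, its highest male, Pnpla2 was 1.39-fold lower in females. Without female 12, the highest female for both, Plin5 was 1.79-fold and Retsat 1.54-fold lower. Cd36, a fatty acid uptake receptor, was 3.19-fold higher in females, at 91.8 to 178 CPM in females and 22.1 to 56.0 CPM in males, and Me1, a source of NADPH, was 1.80-fold higher. Fabp1, the abundant fatty acid binding protein, was not called, at 3992 to 5550 CPM in females and 3806 to 6111 CPM in males (log2 -0.09, SE 0.131, adjusted p = 0.632).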

How the data were processed

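Total RNA from 12 livers was sequenced, each library taken as a separate animal from its numbered label, from TruSeq libraries made with 1 µg of RNA, per the labels' protocols. The deposited values are raw read counts per gene symbol, without normalization. Bowtie2 2.0.2, DESeq and build rn4 appear in the submitters' processing notes. The deposited counts carry the word strand in their names, but the sources used here do not give the counting program, its annotation or its strand setting. Whether genes on opposite strands share reads is therefore not known. The 5 rows that name no gene held 27.1% to 31.7% of each library and were left out of totals and tests. Reads counted as fitting more than 1 gene were 0.359% to 0.388% in females and 1.24% to 2.20% in males.

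Females were tested against males on these counts in R 4.3.3 with edgeR 4.0.16 (filterByExpr with minimum count 10 and minimum total 15, TMM factors, robust quasi-likelihood F test). Each SE divides the absolute log2 fold change by the square root of F. All 30 same-sex pairs of libraries differed beyond sampling noise, with chi-square over degrees of freedom of 6.02 or more. The fit was tested on simulated data. DESeq2 1.42.0, limma-voom (limma 3.58.1), other normalizations and filters, and the omission of animals made 22 alternatives. The labels give no batch, and animal numbers run 1 to 6 in males and 7 to 13 in females, so a batch that followed them cannot be told apart from sex.

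The 33 genes, the lists and the animals left out together were chosen with earlier results of these data known. Named were all 33 genes and, from each wider list, up to 5 called genes per direction with the largest fold change and the most abundant gene not called. Ppara was named after its values were seen. Some genes are not reported here. Current gene names and promoters came from RefSeq tables of GRCr8, which matched all 33 genes and 29 promoters. That build differs from rn4, so the coordinates printed are those of the promoter table.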

Additional observations from a re-analysis of the deposited data

Results flagged for a closer look

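Within each sex, an animal was singled out where its gap to the nearest other animal, divided by the range of the 6, exceeded the 95% critical value of Dixon's test. Over the 71 genes and 142 groups examined, 29 values passed, where chance gives about 7.1. Of these, 20 belonged to female 12 and 6 to male 4, and genes of 1 animal share a library.

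Female 12 stood above the other females for 14 of the oxidation and ketone genes. Along the carnitine relay these were Slc22a5 at 53.9 CPM, Cpt1a at 281 CPM, Cpt2 at 219 CPM and Slc25a20 at 167 CPM, with Mlycd at 101 CPM. In the spiral they were Acadvl at 364 CPM, Acad11 at 328 CPM, Hadha at 572 CPM, Hadhb at 481 CPM and Acaa2 at 692 CPM. For unsaturated chains they were Decr1 at 271 CPM and Dci at 340 CPM. The thioesterases Acot1 at 26.9 CPM and Acot2 at 94.8 CPM were the last of the 14. Outside the 33 genes the same animal stood above the other females for Ppara (33.7 CPM), Creb3l3 (500.4 CPM), Cd36 (178 CPM), Plin5 (6.24 CPM) and Retsat (1351 CPM), and below them for Prkab1 (70.0 CPM).

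Male 4 stood below the other males for Cpt2 (148 CPM), Acadm (600.4 CPM), Acat1 (230.4 CPM) and Retsat (866 CPM), and above them for Ucp2 (17.9 CPM) and Pnpla2 (64.4 CPM). The other 3 values were Acsl1 in female 13 (3204 CPM, high), Sirt3 in female 9 (45.9 CPM, high) and Ppard in male 2 (14.0 CPM, high).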

How the results depend on the processing

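Of the 25 called genes, 18 kept their call in all 22 alternatives and 0 changed direction. The number called lower in females, 22 as reported, ran from 17 to 23, and the median log2 fold change of the 33 genes from -0.38 to -0.26 (all genes -0.016 to 0.015). The number called higher in females, 3 as reported, ran from 1 to 3 when single animals were left out, with 1 without female 12, female 13 or male 6, and 1 without female 12 and male 4 together. Genes not called turned as follows. Slc22a5 ran from -0.059 (without female 12) to 0.19, Ucp2 from -0.47 to 0.083 (without male 4), Acot1 from -0.29 (without female 12) to 0.40 and Acot2 from -0.46 to 0.012 (without male 1) when animals were left out singly. With female 12 and male 4 both out, Slc22a5 stood at -0.064, Ucp2 at 0.087 and Acot1 at -0.35. Pccb stayed near 0, from -0.034 to 0.029 over single omissions, and stood at 0.019 with upper quartile factors, 0.0016 with relative log expression factors, 0.015 with library totals, 0.0061 without the 20 most abundant genes, 0.0020 in DESeq2, 0.0035 with the filter on mean CPM and 0.013 without both animals. The cause of these changes was not tested. No paired analysis was possible because the sexes share no animal numbers. The low genes Acot1 and Ucp2 rest on few reads, with 34 the lowest count of any of the 33 genes in any library.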
